A study of Mus musculus with 6 samples.

Results

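A set of chromatin genes whose proteins carry out silencing by the KRAB domain were taken from expression tables of mouse 32D cells. They are Trim28, Setdb1, Atf7ip, Cbx1, Cbx3, Cbx5, Chd4, Hdac1 and Hdac2, 9 of the 47606 genes listed in each table, found by symbol. They were chosen for the known role of their proteins and not for a measured value, although earlier results of these data were then known. Transcript levels came from 6 RNA-seq libraries of 32D, an immortal murine myeloid cell line grown with interleukin 3 at 1 ng/mL. All 6 libraries came from cells with dCas9-KRAB, a Cas9 that binds DNA without cutting it, joined to a KRAB repressor domain, so the control cells carry the repressor too. The groups were dCas9-KRAB-sg2 (2 libraries) and dCas9-KRAB-sg5 (2 libraries), which received a guide RNA, and dCas9-KRAB-EV (2 libraries), which received the vector with no guide. Each group has a library with replicate number 2 and a library with number 1. Cells were infected with lentivirus and selected in puromycin. The title of the series speaks of an enhancer of CEBPE in granulocytes, and its design sets EV against knock-down with sg2 and sg5. Whether the cells were a single clone is not stated, and the dCas9-KRAB transcript was not analysed here.

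A KRAB domain has no enzymatic activity of its own. It binds TRIM28, a scaffold protein that recruits SETDB1, an enzyme that trimethylates lysine 9 of histone H3, together with heterochromatin protein 1 (HP1), which binds that mark, and the NuRD complex, which removes acetyl groups and remodels nucleosomes. KRAB zinc finger proteins use this route in mammalian cells to silence transposable elements and some genes, and KRAB fused to dCas9 uses it at the site chosen by a guide. Interference by dCas9-KRAB therefore relies on partners of this kind made by the cell line. Transcripts were measured here and proteins were not, and the need for each single partner was not tested. All 9 genes were expressed in every library. None was called different between guide and EV libraries, in a fit that called 0 of the 12929 genes tested. With the replicate number as a block that fit called 5 genes, again without a partner. Between libraries with replicate number 2 and number 1, 5 of the 9 were lower, a share set below against that of all genes.

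Depth implied by the lowest FPKM steps (FPKM are fragment numbers corrected for the length of the transcript and the size of the library) ran from 31500000 to 45600000 fragments per library. Cebpe, the gene whose enhancer the title names, checked the labels, with 14.4 to 22.7 FPKM in the 4 guide libraries and 42.0 and 100 FPKM in the 2 EV libraries. Of 10 myeloid progenitor markers 8 were tested, with levels that ran from 1.4 to 2.5 FPKM for Elane to 234 to 372 FPKM for Prtn3. Ptprc had 85.5 to 105 FPKM and Spi1 103 to 137 FPKM, Cd33 reached at most 0.565 FPKM, and Kit was listed at 0 in all 6. Summed markers of B cells, T cells, fibroblasts and epithelium reached at most 2.13 FPKM in any library. RNAs shorter than 200 nt held 15.4% to 21.5% of the summed FPKM in number 2 libraries and 6.77% to 9.67% in number 1 libraries, without overlap. The library titled as the number 2 replicate of sg5 names sg2 in its source name and genotype. Here it counts as sg5, and the fitted contrasts that rest on it are also given with it left out or moved.

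As levels per transcript length, the partners covered a span from 17.6 to 145 FPKM. Cbx3 had the highest mean, 145 ± 37.9 FPKM (SD, n = 6), and Trim28 followed with 113 ± 24.9 FPKM. Hdac2 (77.1 FPKM), Chd4 (76.4 FPKM), Hdac1 (73.8 FPKM), Cbx1 (72.4 FPKM) and Cbx5 (69.0 FPKM) formed a middle group in which each gene was above the next in only 3 or 4 of 6 libraries. The order of neighbours there was thus not the same in every library. Cbx1 was above Cbx5 in every number 1 library and below it in every number 2 library. Atf7ip averaged 57.0 ± 5.0 FPKM and Setdb1 17.6 ± 1.27 FPKM (SD, n = 6). The steps from Cbx3 to Trim28, Trim28 to Hdac2, Cbx5 to Atf7ip and Atf7ip to Setdb1 held in 6 of 6 libraries. Setdb1, the methyltransferase, was the least abundant of the 9, above 53.0% of the 12929 genes tested, and the other 8 stood above 83.9% to 94.7% of them. All 9 passed the filter for tests, a mean of at least 1 FPKM. The summed level of the 9 genes lay between 580 and 830 FPKM in every library. The plot of partner levels by group shows each library.

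**Figure D1:**
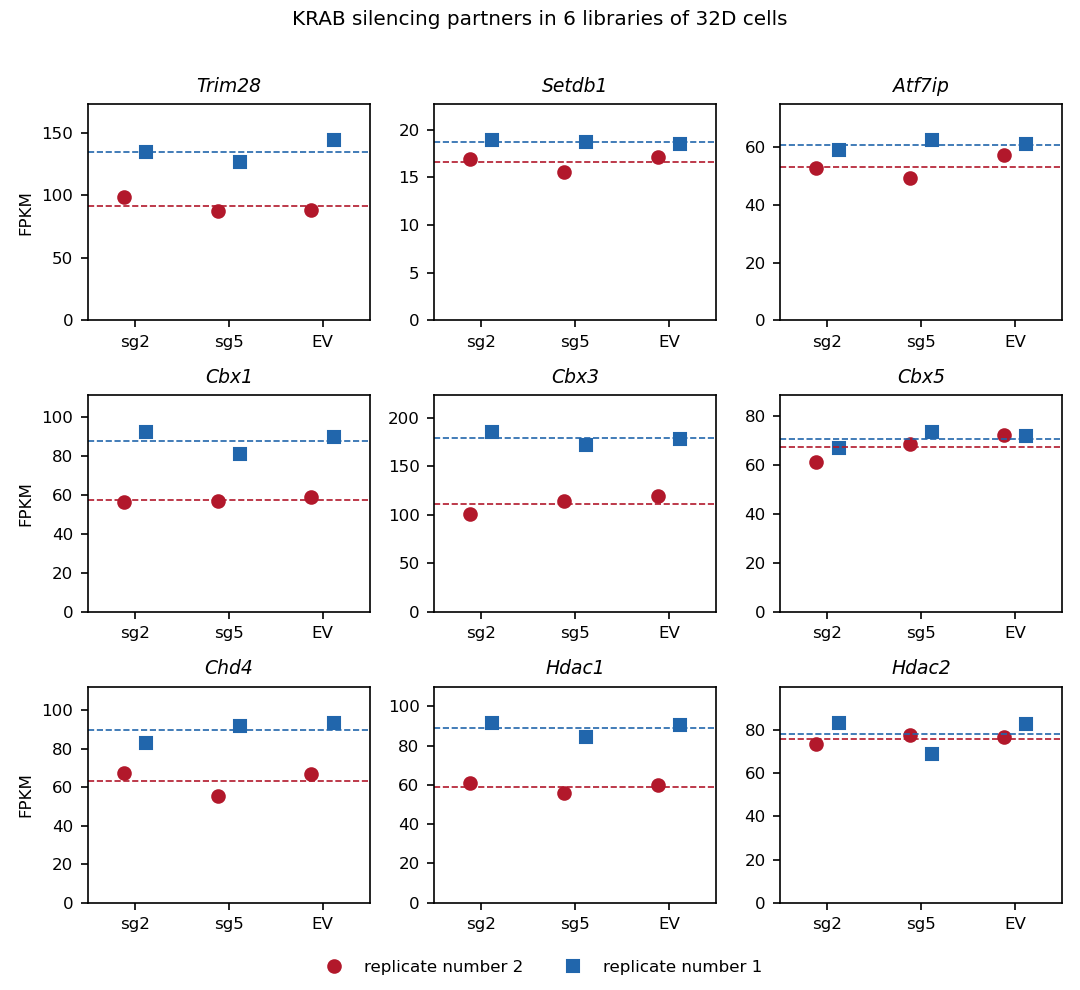
FPKM of each partner (vertical axis, starting at 0) in sg2, sg5 and EV libraries, with red circles for replicate number 2, blue squares for number 1 and dashed lines at the mean of each number. For Trim28, Cbx1, Cbx3, Chd4 and Hdac1 the circles lie well below the squares in all 3 groups, for Setdb1 and Atf7ip the gap is small, and for Cbx5 and Hdac2 the symbols mix.

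Trim28 (ENSMUSG00000005566, chromosome 7, 12999114 to 13031035, plus strand, GRCm38), which binds the KRAB domain directly, had 98.5, 87.4 and 87.9 FPKM in the number 2 libraries of sg2, sg5 and EV, against 135, 127 and 144 FPKM in the number 1 libraries. Every number 2 library was below every number 1 library, whereas guide and EV libraries overlapped. Number 2 stood at 67.6% of the number 1 mean, a log2 difference of -0.56 (SE 0.07, limma adjusted p = 0.00567), on the log2(FPKM + 1) scale used for all differences here. Guides against EV gave -0.03 (SE 0.27), or -0.03 (SE 0.09) with the replicate number as a block, and neither passed. In RNA from whole cultures, fewer cells of a type and less RNA per cell cannot be told apart.

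The 150 bases before the RefSeq start of Trim28 (GRCm38.p6, chr7:13024002-13024151, plus strand, 5′ to 3′) are shown because this scaffold gene differed between numbers. Capitals here and in the promoters below mark matches, on either strand, to motifs of common promoter factors, namely GGGCGG for the GC box, CCAAT for the box of that name, CACGTG for the E-box, CCGGAAG for the ETS family and TTTCCCGC for the E2F family.
Trim28: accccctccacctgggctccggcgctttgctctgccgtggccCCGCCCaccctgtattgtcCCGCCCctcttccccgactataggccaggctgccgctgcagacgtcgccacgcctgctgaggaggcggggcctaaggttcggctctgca
It holds 2 GC boxes, both as CCGCCC, and no other motif of the 5. RefSeq windows were found for 8 of the 9 partners, 11 windows in all, and the one not matched is Hdac1. In the 250 bases before the start, 10 of these 11 windows held a GC box, as did 32.7% of 32851 mouse windows of that length. CCAAT was in 4 of 11 windows (33.8% of all), CACGTG in 1 (6.02%), CCGGAAG in 1 (6.91%) and TTTCCCGC in 0 (0.895%). Cbx3, Cbx5 and Chd4 have more than 1 window, and those of Chd4 overlap, so the 11 windows are not independent. The 32851 windows are not limited to expressed genes, and nothing particular to the partners is read from these counts. A match describes letters and not a bound site.

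Setdb1 (ENSMUSG00000015697, chromosome 3, 95323525 to 95357202, minus strand), the methyltransferase that TRIM28 brings to a locus, had 16.9, 15.6 and 17.2 FPKM in number 2 libraries of sg2, sg5 and EV, against 18.9, 18.7 and 18.5 FPKM in number 1. The numbers did not overlap, but the gap was small, with number 2 at 88.8% of number 1. The log2 difference of -0.16 (SE 0.07) did not pass (limma adjusted p = 0.11). Its promoter (chr3:95357203-95357352, minus strand) is shown as the only one of the 11 windows with the ETS motif, which it holds on both strands.
Setdb1: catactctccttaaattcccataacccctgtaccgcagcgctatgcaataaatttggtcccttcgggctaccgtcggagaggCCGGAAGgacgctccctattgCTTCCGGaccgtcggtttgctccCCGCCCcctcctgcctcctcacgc
Part of the Setdb1 transcript is also found in Gm4349 (chromosome 3, 95427671 to 95431087), annotated in GENCODE M21 as a long intergenic RNA, with 641 of 645 aligned bases alike (99.4%). Reads from that stretch may be split between the genes, so both values are uncertain. Gm4349 stood at 0.426 to 0.514 of the Setdb1 level in number 2 libraries and 0.287 to 0.366 in number 1. With both summed, the difference between numbers was -0.02 (limma adjusted p = 0.871).

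Atf7ip (ENSMUSG00000030213, chromosome 6, 136506167 to 136610862, plus strand) encodes the partner that keeps SETDB1 stable in the nucleus. It had 52.8, 49.4 and 57.2 FPKM in number 2 libraries of sg2, sg5 and EV, against 59.1, 62.4 and 61.1 FPKM in number 1. The numbers did not overlap, with the closest values 57.2 and 59.1 FPKM. After scaling each library by its median ratio to the others they did, at 58.2 FPKM in EV number 2 and 57.7 FPKM in sg2 number 1. The log2 difference of -0.19 (SE 0.07) did not pass (limma adjusted p = 0.0876). The ratio of Atf7ip to Setdb1 overlapped, between 3.13 and 3.32 in number 2 libraries and between 3.12 and 3.34 in number 1. With Gm4349 added to Setdb1 it did not, at 2.09 to 2.25 in number 2 and 2.29 to 2.57 in number 1. Trim28 to Setdb1 was 5.10 to 5.83 in number 2 and 6.80 to 7.78 in number 1, without overlap (exact permutation p = 0.1, the smallest that 20 splits allow).

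The HP1 genes encode the readers of the SETDB1 mark. Cbx3 (HP1 gamma, ENSMUSG00000029836, chromosome 6, 51470360 to 51483704, plus strand) had 101, 114 and 119 FPKM in number 2 libraries of sg2, sg5 and EV, against 186, 172 and 178 FPKM in number 1. It showed the largest difference of the 9 partners between numbers, -0.69 (SE 0.08, limma adjusted p = 0.00493), with number 2 at 62.1% of number 1 and the libraries well apart. Cbx1 (HP1 beta, ENSMUSG00000018666, chromosome 11, 96789127 to 96808640, plus strand) had 56.2, 56.9 and 58.7 FPKM in number 2, against 92.4, 80.8 and 89.7 FPKM in number 1. The 3 number 2 values lay close together and well below the rest, and the difference was -0.60 (SE 0.07, limma adjusted p = 0.00418).

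Cbx5 (HP1 alpha, ENSMUSG00000009575, chromosome 15, 103191544 to 103239816, minus strand) stood apart from its relatives. It had 61.1, 68.6 and 72.1 FPKM in number 2 libraries of sg2, sg5 and EV, against 66.7, 73.6 and 71.8 FPKM in number 1. The numbers overlapped, and the EV libraries were nearly equal. The difference of -0.07 (SE 0.06, 95% interval -0.24 to 0.09) did not pass (limma adjusted p = 0.373). The promoters of Cbx3 (chr6:51470466-51470615, plus strand) and Cbx5 (chr15:103239853-103240002, minus strand) are set side by side as relatives that differed in this respect. Each gene has a further window in the table, and the window shown is the upstream one of each gene.
Cbx3: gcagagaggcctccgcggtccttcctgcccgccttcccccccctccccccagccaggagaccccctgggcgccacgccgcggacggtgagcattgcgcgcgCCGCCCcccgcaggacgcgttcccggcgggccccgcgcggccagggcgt
Cbx5: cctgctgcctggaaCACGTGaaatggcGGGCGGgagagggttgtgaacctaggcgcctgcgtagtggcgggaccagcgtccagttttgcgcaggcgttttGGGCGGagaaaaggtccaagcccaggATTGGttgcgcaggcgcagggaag
Cbx5 holds an E-box, 2 GC boxes and a CCAAT box read on the other strand, and Cbx3 holds 1 GC box. The further windows hold 1 GC box and no other motif for Cbx5, and 0 motifs for Cbx3. Of the HP1 transcripts summed in each library, Cbx5 made up 28.1% to 28.9% in number 2 and 19.3% to 22.5% in number 1. Cbx3 made up 46.2% to 47.6% in number 2 and 52.4% to 53.9% in number 1. Neither share overlapped between numbers (exact permutation p = 0.1 for each, adjusted p = 0.15 over 6 ratios), whereas that of Cbx1 did, at 23.5% to 25.8% in number 2 and 24.7% to 26.8% in number 1. The HP1 sum was 218 to 250 FPKM in number 2 and 327 to 345 FPKM in number 1. Cbx3 has 11 near-identical copies in GENCODE M21, among them processed pseudogenes, and the 7 found in the tables reached at most 0.677 FPKM.

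**Figure D2:**
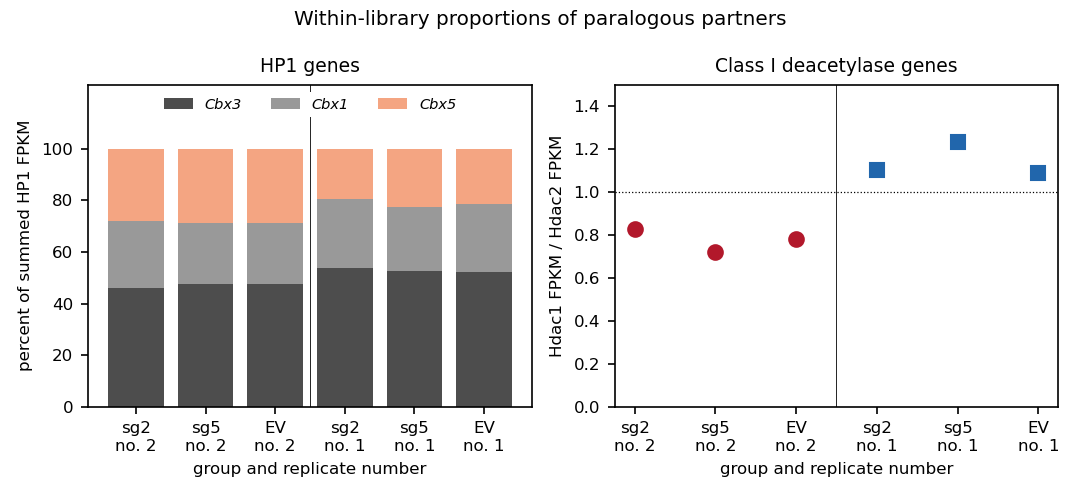
Left, share of the summed HP1 FPKM held by Cbx3, Cbx1 and Cbx5 in each library (percent), and right, Hdac1 FPKM divided by Hdac2 FPKM, with the 3 number 2 libraries left of the 3 number 1 libraries and a dotted line at 1. The Cbx5 share is 28.1% to 28.9% in number 2 and 19.3% to 22.5% in number 1, and Hdac1 is below Hdac2 in each number 2 library and above it in each number 1 library.

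Chd4 (ENSMUSG00000063870, chromosome 6, 125095981 to 125130591, plus strand), the ATPase that moves nucleosomes in the NuRD complex, had 67.5, 55.5 and 66.9 FPKM in number 2 libraries of sg2, sg5 and EV, against 83.2, 92.0 and 93.5 FPKM in number 1. The numbers did not overlap, and the sg5 libraries were furthest apart. The difference was -0.50 (SE 0.10, limma adjusted p = 0.0158). It was -0.51 but no longer passed without EV replicate 1 (adjusted p = 0.084) or EV replicate 2 (adjusted p = 0.0844).

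Hdac1 and Hdac2 encode the related deacetylases of NuRD, which also serve other corepressor complexes. Hdac1 (ENSMUSG00000028800, chromosome 4, 129516104 to 129542713, minus strand) had 60.8, 55.7 and 60.0 FPKM in number 2 libraries of sg2, sg5 and EV, against 91.6, 84.4 and 90.6 FPKM in number 1. The numbers were well apart, with each number 2 library at 66.1% to 66.4% of the number 1 library of its group. Its difference of -0.59 (SE 0.06) had the smallest adjusted p of the 9 (limma, 0.00299). Hdac2 (ENSMUSG00000019777, chromosome 10, 36974544 to 37001889, plus strand) had 73.3, 77.7 and 76.7 FPKM in number 2, against 83.3, 68.7 and 82.9 FPKM in number 1. Here the numbers overlapped, since sg5 was higher in number 2 and the other groups lower. The difference was -0.04 (SE 0.09, 95% interval -0.28 to 0.20, limma adjusted p = 0.744), and 0.02 after median-of-ratios scaling.

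Within a library, Hdac1 stood at 0.718 to 0.829 of Hdac2 in number 2 and at 1.09 to 1.23 of it in number 1, so the order of the paralogs turned round (exact permutation p = 0.1, adjusted p = 0.15 over 6 ratios). Their sum was 133 to 137 FPKM in number 2 and 153 to 175 FPKM in number 1. The Hdac2 promoter (chr10:36974394-36974543, plus strand) is printed as that of the deacetylase gene that overlapped between numbers, and it holds 1 GC box.
Hdac2: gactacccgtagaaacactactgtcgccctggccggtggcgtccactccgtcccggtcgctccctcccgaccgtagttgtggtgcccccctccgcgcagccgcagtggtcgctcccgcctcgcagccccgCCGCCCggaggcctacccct
Hdac1 reads are uncertain because Gm10093 (chromosome 17, 78491582 to 78493025), which GENCODE M21 annotates as a processed pseudogene, repeats its coding sequence with 9 differences over 1444 aligned bases. The 60 bases below, from 512 of the Hdac1 transcript and from 428 of Gm10093, hold 5 of those differences, in capitals. They were picked as a stretch rich in differences, and the rest of the aligned sequence separates reads of the genes less.
Hdac1: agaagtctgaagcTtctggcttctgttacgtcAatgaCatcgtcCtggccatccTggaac
Gm10093: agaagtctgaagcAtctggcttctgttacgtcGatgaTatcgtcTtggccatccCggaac
Gm10093 was listed at 13.5 to 23.6 FPKM and at 0.224 to 0.257 of Hdac1 in every library. With both summed, the difference between numbers was -0.61 (limma adjusted p = 0.00278), and the summed level over Hdac2 was 0.895 to 1.02 in number 2 and 1.37 to 1.54 in number 1.

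Guides were compared with EV to see whether guide cells differed in the transcript levels of these partners. None of the 9 was called by limma, and 0 of 12929 genes were (percent called 0, with 169 genes, or 1.31%, at an unadjusted p under 0.05). With the replicate block, 5 genes were called (0.0387%), again without a partner, and 739 genes (5.72%) had an unadjusted p under 0.05. All 9 estimates were negative but small, between -0.03 for Trim28 and -0.11 for Chd4, with guide means at 92.9% to 98.1% of EV means. Of all genes tested, 6632 of 12929 had a negative estimate. Without the block, 3 of the 9 stayed negative when EV replicate 1 or sg5 replicate 2 was left out, and 5 without sg2 replicate 2. With the block, 8, 8 and 9 of the 9 stayed negative in these fits, in that order. Over all single libraries left out, the blocked count was 7 to 9. Guide and EV libraries overlapped for every partner, where 5.1% of genes tested did not overlap. The 95% intervals reached from -0.85 to 0.71 over the 9 without the block, and from -0.35 to 0.18 with it, where adjusted p ran from 0.905 to 0.976. The estimates do not show that the groups are equal. Within number 2 the guides minus EV difference ran from -0.16 for Atf7ip to 0.08 for Trim28, and within number 1 from -0.14 for Trim28 to 0.02 for Setdb1, from 1 EV library each and without a test.

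Taken singly, neither guide had a partner called against EV. Member differences were -0.17 to 0.03 for sg2 against EV, where 1 of 12929 genes was called (0.00773%) and 150 had an unadjusted p under 0.05. They were -0.14 to -0.02 for sg5 against EV, with 0 genes called by limma and 176 at that unadjusted p, and these comparisons share their EV libraries. Between sg5 and sg2 they were -0.13 to 0.15, with 0 genes called and 111 at that p. When the block was added, limma called 3 genes for sg2 against EV, 2 for sg5 against EV and 0 between guides, again without a partner. Genes at an unadjusted p under 0.05 then numbered 556, 1039 and 684. With the sg5 library of number 2 counted as sg2, and no block, sg5 rested on its number 1 library alone. The range was then -0.22 to -0.03 for sg2 against EV, -0.21 to 0.24 for sg5 against EV and -0.18 to 0.44 between guides. The plot of fitted differences sets the guide contrast beside the number contrast.

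**Figure D3:**
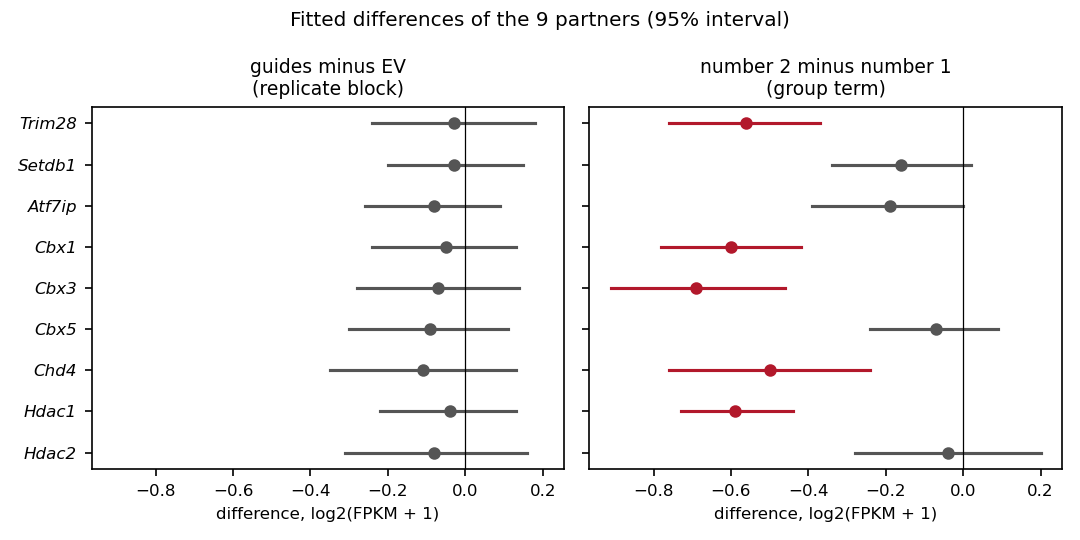
Fitted differences on the log2(FPKM + 1) scale with 95% intervals for the 9 partners, guides minus EV with the replicate block (left) and number 2 minus number 1 with a group term (right), red where the limma adjusted p is under 0.05. On the left every interval crosses 0 and lies between -0.35 and 0.18, and on the right the points of Trim28, Cbx1, Cbx3, Chd4 and Hdac1 lie between -0.50 and -0.69.

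Between replicate numbers, 5 of 9 partners were called lower and 0 higher, where limma called 47.1% of the 12929 genes and 26.9% as lower. Among 10581 protein-coding genes alone, 59.5% were called and 34.7% as lower. Libraries of the numbers did not overlap for 7 of 9 partners, all lower in number 2, against 61.1% of genes in either direction and 34.1% lower. Without single EV or sg2 libraries limma called 3036 to 3171 genes of 12929. The partners called were then 4 without either EV library and 5 without either sg2 library. Nothing particular to the partners is read from these counts. The median difference was -0.50 over the partners and -0.04 over all genes. After median-of-ratios scaling the median of all genes was 0.01, 5 partners passed as before (46.6% of all genes), and Hdac2 turned to 0.02. The share of short RNAs moved with the number. So did the erythroid marker Klf1, with 4.02, 2.01 and 3.40 FPKM in number 2 libraries of sg2, sg5 and EV, against 9.19, 6.90 and 6.05 FPKM in number 1. Epor overlapped between numbers (5.55 to 7.59 FPKM in number 2, 7.50 to 9.65 FPKM in number 1), and Hbb-bt was at 0 in all 6. Of the 8 myeloid markers tested, 1 was higher, 2 lower and 5 not called, and the sums of the list overlapped (780 to 963 FPKM in number 2, 743 to 971 FPKM in number 1). Single markers of the list were far apart all the same. Cebpa, a transcription factor gene of myeloid progenitors, had 216, 208 and 136 FPKM in number 2 libraries of sg2, sg5 and EV, against 44.3, 70.2 and 32.2 FPKM in number 1. Mpo, the myeloperoxidase gene, had 12.3, 14.8 and 13.0 FPKM in number 2, against 41.5, 123 and 151 FPKM in number 1. Csf2rb, a cytokine receptor gene, had 97.1, 95.1 and 69.5 FPKM in number 2, against 163, 197 and 139 FPKM in number 1. The part of these in the differences of the partners was not tested. When libraries were scaled to the sum without short RNAs, the 5 partners called lower had differences from -0.44 for Chd4 to -0.62 for Cbx3. That scaling called 6016 of 12929 genes, 2967 of them as lower. Without the sg5 library of number 2 the count was 5 of 9, where 4277 of 12929 genes were called, 2505 of them as lower. The histogram of number differences places the partners among all genes.

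**Figure D4:**
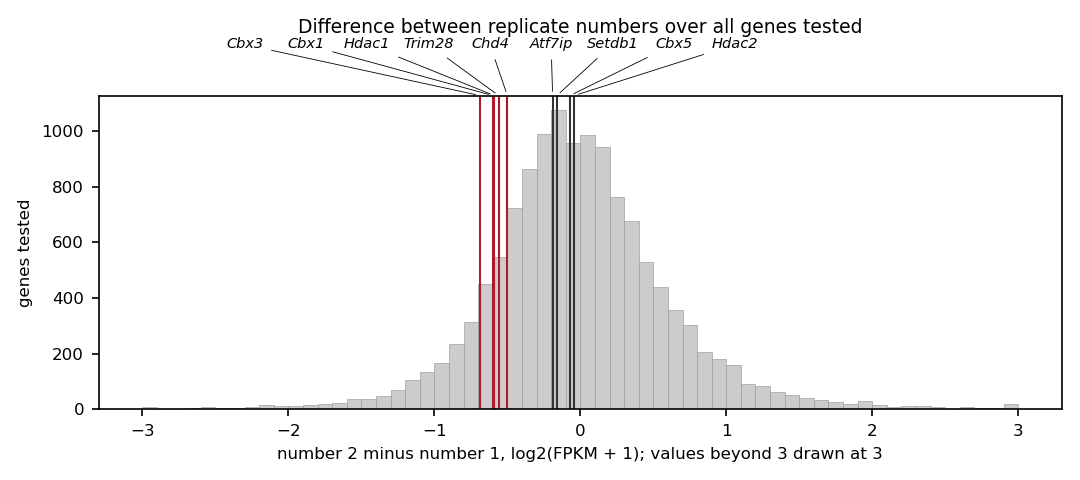
Histogram of the number 2 minus number 1 difference over 12929 genes (log2(FPKM + 1), values beyond 3 drawn at 3), with lines for the 9 partners, red where the limma adjusted p is under 0.05. Trim28, Cbx1, Cbx3, Chd4 and Hdac1 stand between -0.50 and -0.69 in the lower flank, and Setdb1, Atf7ip, Cbx5 and Hdac2 lie near the centre.

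Other subunits of the NuRD complex were lower in number 2 or not called. Of 11 tested 6 were lower and 0 higher, with a median of -0.33. These counts and those of the lists that follow stand beside 47.1% of all genes called and 26.9% called lower (59.5% and 34.7% among protein-coding genes), and nothing particular to a list is read from them. Rbbp7, a histone chaperone subunit, averaged 129 ± 7.97 FPKM in number 2 and 211 ± 21.2 FPKM in number 1 (SD, n = 3 each; difference -0.70, limma adjusted p = 0.00316). Mbd3, a subunit of the methyl-binding family, averaged 30.8 ± 3.52 FPKM in number 2 and 65.0 ± 4.36 FPKM in number 1 (-1.06, limma adjusted p = 0.00275), a larger gap than that of Chd4. Of the 16 tested genes of other class I deacetylase complexes, 6 were lower, 0 higher and 10 not called. Hdac3, the deacetylase of the NCoR complex, averaged 46.3 ± 1.31 FPKM in number 2 and 74.5 ± 0.96 FPKM in number 1 (-0.68, limma adjusted p = 0.0026), with values like those of Hdac1. Ncor1 averaged 86.0 ± 4.82 FPKM in number 2 and 87.4 ± 4.37 FPKM in number 1 and was not called.

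The relatives of TRIM28 went opposite ways between numbers. Trim33 was lower, with 21.6 ± 1.83 FPKM in number 2 and 28.7 ± 0.649 FPKM in number 1 (SD, n = 3 each; -0.40, limma adjusted p = 0.0129). Trim24 was higher, with 14.4 ± 1.54 FPKM in number 2 and 10.6 ± 0.318 FPKM in number 1 (0.40, limma adjusted p = 0.0193). Of 8 tested genes for other histone H3 lysine 9 methyltransferases and the HUSH complex, which works with SETDB1, 3 were lower and 5 not called. Suv39h1, a methyltransferase of constitutive heterochromatin, averaged 26.8 ± 0.543 FPKM in number 2 and 36.8 ± 1.11 FPKM in number 1 (-0.44, limma adjusted p = 0.00694), while Ehmt2 averaged 66.7 ± 6.72 and 71.2 ± 1.80 FPKM and was not called.

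KRAB zinc finger genes, whose products are the natural clients of TRIM28, were called in both directions. Of 12 tested 3 were higher in number 2, 3 lower and 6 not called, with a median of 0.04. Zfp809, known for silencing of retroviruses in mouse, averaged 26.5 ± 4.47 FPKM in number 2 and 13.9 ± 0.75 FPKM in number 1 (SD, n = 3 each; 0.88, limma adjusted p = 0.0072), so it was higher where Trim28 was lower. Zfp568 averaged 4.88 ± 0.347 FPKM in number 2 and 8.26 ± 0.70 FPKM in number 1 (-0.66, limma adjusted p = 0.00493). No gene of any of these lists was called between guides and EV, where 0 of 12929 genes were called without the block and 5 (0.0387%) with it.

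Rpl10a (Pearson r = 0.9995), a ribosomal protein gene, Snrnp35 (r = 0.999), a gene of the minor spliceosome, and Lrrk1 (r = 0.9978), a kinase gene, were the 3 genes most like Trim28 over the 6 libraries, among 9901 with a mean of at least 5 FPKM. Such likeness was common, since 12.6% of those genes had r above 0.95. Rpl10a had 486, 423 and 426 FPKM in number 2 libraries of sg2, sg5 and EV, against 723, 678 and 803 FPKM in number 1, with the sg2 library highest of number 2 and the EV library highest of number 1, as for Trim28. This is a description over few libraries, which share their replicate numbers.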

How the data were processed

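The authors deposited 1 table of FPKM values per library. The builds GRCm38 and mm10 and the tools DESeq2 and kallisto 0.43.0 are named in the submitters' processing notes, with no word on which step gave the FPKM. Members, lists and tests were chosen with earlier results of these data known. Genes were found by symbol, and positions come from GENCODE M21 (GRCm38). Values were taken as log2(FPKM + 1), which understates changes of low genes. limma 3.58.1 (R 4.3.3, intensity trend, Benjamini-Hochberg, threshold 0.05) was fitted to all 12929 genes whose mean reached 1 FPKM. Guides were set against EV without a block, and number 2 against number 1 with a group term. No count model was run on FPKM. Single ratios had exact permutation tests over libraries.

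The text names all 9 members, from each list the gene of highest mean and the 3 of smallest p per comparison (a selection of these is printed), and the 3 genes most correlated with Trim28. The lists held 3 to 19 genes of related complexes. A marker gene of the erythroid list is not reported here.

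Before the fits were compared, number differences were correlated across genes between groups, at 0.611 for sg2 and EV, 0.591 for sg5 and EV and 0.583 for sg5 and sg2. The numbers were therefore taken to pair libraries, from the data and not the labels. No label calls the replicates separate cultures. The p-values thus reflect only how far these samples spread, and that spread may be technical.

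On simulated data over 12929 genes, 100 of them changed by 1 log2 unit, guides against EV recovered 0 without the block and 97 with it, and the number contrast 97. At 0.5 log2 units these were 0, 50 and 63 of 100. In the same order, 0, 10 and 23 unchanged genes were called, each over both sizes of change. The changed genes were drawn from those of higher level, and far fewer were changed than were called between the real numbers.

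Depth was read from low values of single-transcript genes over 4000 nt, with 92.5% to 98.0% whole within 0.15 fragments at an assumed fragment length of 200 nt. For a 1 kb transcript 3 fragments are 0.0658 to 0.0952 FPKM, for counting error only. Near-identical copies came from minimap2 2.31 on GENCODE M21 transcripts (at least 300 matching bases and 95% identity). Promoters are from RefSeq. Tables and figures used Python 3.11.15, pandas 2.3.3, scipy 1.17.1 and matplotlib 3.10.9.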

Additional observations from a re-analysis of the deposited data

Results flagged for a closer look

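In 66 groups of 4 guide libraries, 3 had a value far from the others, where chance gives about 1 in 20. The ratio of Atf7ip to Setdb1 was 3.34 in sg5 number 1 and 3.12 to 3.16 in the other 3. Mta3, a NuRD subunit gene, had 56.6 FPKM in sg5 number 2 and 63.9 to 64.4 FPKM in the others. Ncor1 had 91.7 FPKM in sg5 number 1 and 83.0 to 83.5 FPKM in the others.

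For 4 genes both guide libraries stood on one side of EV in number 2 and on the other side in number 1, a difference that was not tested. The share of all genes that do so was not computed, and with 1 EV library per number it can be common. Nothing particular to these 4 genes is read from it. Guides minus EV was -0.08 in number 2 and 0.02 in number 1 for Setdb1, and 0.12 in number 2 and -0.30 in number 1 for Dnmt3a, a DNA methyltransferase gene. It was 0.31 and -0.03 for Zfp429, a KRAB zinc finger gene, and 0.17 and -0.11 for Tex101, a germline gene.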

How the results depend on the processing

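Over all alternatives, 137 partner values for number 2 against number 1 kept their direction and side of the threshold, while 5 reversed and 2 missed the threshold. For guides against EV 150 kept both and 21 reversed. Hdac2 was 0.02 with median-of-ratios scaling, 0.02 with that and no group term, and 0.02 with libraries scaled to the sum without short RNAs, and -0.15 to 0.03 without single libraries. The last of these scalings, that without a group term, the protein-coding subset and the summed copies were chosen after seeing the data. Chd4 lay between -0.60 and -0.39 without single libraries, and missed the threshold at -0.51 without either EV library. For guides against EV, leaving out 1 library without the block gave -0.38 to 0.32 for Trim28 and -0.08 to 0.02 for Setdb1. It gave -0.35 to 0.25 for Cbx1, -0.36 to 0.22 for Cbx3, -0.35 to 0.13 for Chd4 and -0.34 to 0.25 for Hdac1. Except for Setdb1, these ends came from fits without 1 EV library, which left EV with a single replicate number. With the replicate block the ranges were -0.14 to 0.08 for Trim28, -0.08 to 0.02 for Setdb1 and -0.09 to -0.01 for Cbx1. They were -0.15 to 0.01 for Cbx3, -0.17 to -0.05 for Chd4 and -0.07 to -0.02 for Hdac1. The cause of these shifts was not tested. Genes called for guides against EV numbered 0, and 6 with no filter, 5 with the replicate block, 1 among protein-coding genes and 0 to 2 without single libraries. For sg2 the count of 1 became 0 with no filter, 0 at a mean of at least 5 FPKM, 0 with the sg5 library of number 2 counted as sg2, 0 without any single library and 3 with the block. For sg5 it was 0, and 18 with no filter or 2 with the block, and between guides 0, or 23 with no filter. For the numbers 6089 became 3036 to 4277 without single libraries. No partner was called for the guides in any of these. FPKM without counts limits the precision of low genes.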

Other observations

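Other genes around the pathway are given here beside 47.1% of all genes called between numbers (59.5% among protein-coding genes), and nothing particular to a list is read from the counts. Of 12 SUMO genes tested (TRIM28 binds SETDB1 and NuRD through SUMO), 2 were higher in number 2, 5 lower and 5 not called. Sumo2 averaged 303 ± 20.5 FPKM in number 2 and 426 ± 26.8 FPKM in number 1 (SD, n = 3 each; -0.49, limma adjusted p = 0.00966), and Sumo3 averaged 91.2 ± 4.73 FPKM in number 2 and 141 ± 7.70 FPKM in number 1 (-0.63, limma adjusted p = 0.00366). Of 6 tested genes of DNA methylation 3 were lower and 0 higher. Uhrf1, which brings DNMT1 to replicated DNA, averaged 89.3 ± 8.17 FPKM in number 2 and 132 ± 10.5 FPKM in number 1 (-0.56, limma adjusted p = 0.00372). Of 7 tested demethylases of histone H3 lysine 9, 1 was higher, 2 lower and 4 not called. Kdm4b averaged 41.1 ± 11.2 FPKM in number 2 and 64.7 ± 10.1 FPKM in number 1 (-0.66, limma adjusted p = 0.013), and Kdm4c averaged 17.7 ± 1.04 FPKM in number 2 and 14.8 ± 1.37 FPKM in number 1 (0.25, limma adjusted p = 0.0357).

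Of 10 germline genes that most somatic cells silence, 5 were listed at 0 in all libraries and 1 passed the filter. That gene, Tex101, had 1.22 to 2.12 FPKM with guides and 1.57 and 1.69 FPKM in EV, and was not called. Dnmt3b had 3.94 to 5.34 FPKM in the 4 guide libraries and 5.57 and 6.12 FPKM in EV, without overlap, and was not called (limma adjusted p = 1 without the block and 0.813 with it).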
